A study of Mus musculus with 28 samples.

Results

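The response of the mouse distal colon to an early stage of colitis-associated tumour formation was described across genes. It rests on 3 arrays of treated mice (early distal) and 6 arrays of untreated mice (untreated distal), 9 of the 28 arrays of the study, chosen by their titles alone. All mice were female C57BL/6J. Early mice weighed about 18 to 20 g when they were given azoxymethane (AOM) at 10 mg per kg, an alkylating colon carcinogen. Dextran sulfate sodium (DSS), a polymer that strips the colon lining, followed after 96 hours at 2.5% in the water. Early mice passed through 2 cycles, each of 5 days of DSS and 14 days of plain water, and were killed on day 42. According to the labels the distal colon then held areas of dysplasia, while the proximal colon was free of lesions. No agent is named for the untreated mice, and no age or sham injection, so AOM, DSS, age and handling cannot be told apart here. Dissection of lesions from the surrounding wall is not described, so each array reads a whole piece of tissue. Early proximal (3 arrays), untreated proximal (6 arrays) and late distal (6 arrays, 4 DSS cycles, day 120) were used only to place the early distal values.

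The colon is lined by one layer of epithelium, in which absorptive colonocytes and goblet cells arise from stem cells at the crypt base. When DSS breaks this layer, bacteria reach the tissue beneath, neutrophils and monocytes enter from the blood, and stromal cells rebuild the matrix. AOM is activated to a compound that methylates DNA, and repeated injury and repair allow mutated crypts to grow into dysplasia. Interferons, NF-kB and STAT3 carry much of the signalling between the inflamed stroma and the epithelium in this setting.

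The values are log2 expression after RMA, so a difference of 1 is a doubling. Array medians of the 9 distal arrays lay between 6.63 and 6.78. The level of a gene near 4.10, the median of the probe sets that the authors' table leaves out, is close to background, and fold changes from such a level are uncertain in size. Several arrays stood apart. Untreated distal 3 had Hoxd13 at 3.44, Hoxb13 at 5.36 and Hoxb6 at 10.27, as 5 of the 6 untreated proximal arrays did, whereas the other 5 untreated distal arrays had Hoxd13 between 11.68 and 12.20. Untreated proximal 1 had the reverse, with Hoxd13 at 11.37. These 2 arrays went against their labelled region, and the early response was also computed without them. Pancreatic acinar transcripts were present in early distal 3 and untreated distal 1, with Cela2a at 10.33 and 11.08, against 4.84 and 5.63 in the other early arrays and 4.64 to 5.30 in the other untreated ones. The mean of the 6 acinar markers, relative to the untreated mean, ran from -1.02 to 2.38 in early arrays and reached 3.56 in untreated ones, 0 of the 6 were called, and their part in other results was not tested. Untreated proximal 1 carried acinar transcripts too, with a mean of 3.71 where the other untreated proximal arrays had -1.60 to -1.24. Early distal 1 lay between the untreated arrays and the other 2 early arrays in most immune lists. All early arrays carried more decimals than the others (5.30 against 4.72 on average), so a difference in their preparation cannot be told apart from treatment.

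In early distal colon 1592 of 14123 genes, or 11.3%, passed an adjusted p of 0.05 against untreated distal colon. Of these, 992 (7.02%) were higher and 600 (4.25%) lower. The rises were the larger changes: 701 genes rose and 145 fell at least 2-fold, and 52 rose at least 8-fold while 17 fell at least 4-fold. In 1435 genes (10.2%) the 3 early arrays did not overlap the 6 untreated ones, and the median log2 difference over all genes was -0.06. Leaving out early distal 3 gave 509 called genes, early distal 2 gave 807 and early distal 1 gave 2102. Without untreated distal 3 and untreated proximal 1, left out after their Hox values were seen, 1863 genes were called, 1070 higher and 793 lower. By the protein classes in the authors' table, receptors and secreted signals were called most often: 88 of 227 transmembrane receptors and 35 of 97 cytokines were higher and 7 and 4 lower. Of 1051 transcription regulators 54 were higher and 25 lower, and of 75 translation regulators 1 was higher.

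**Figure D1:**
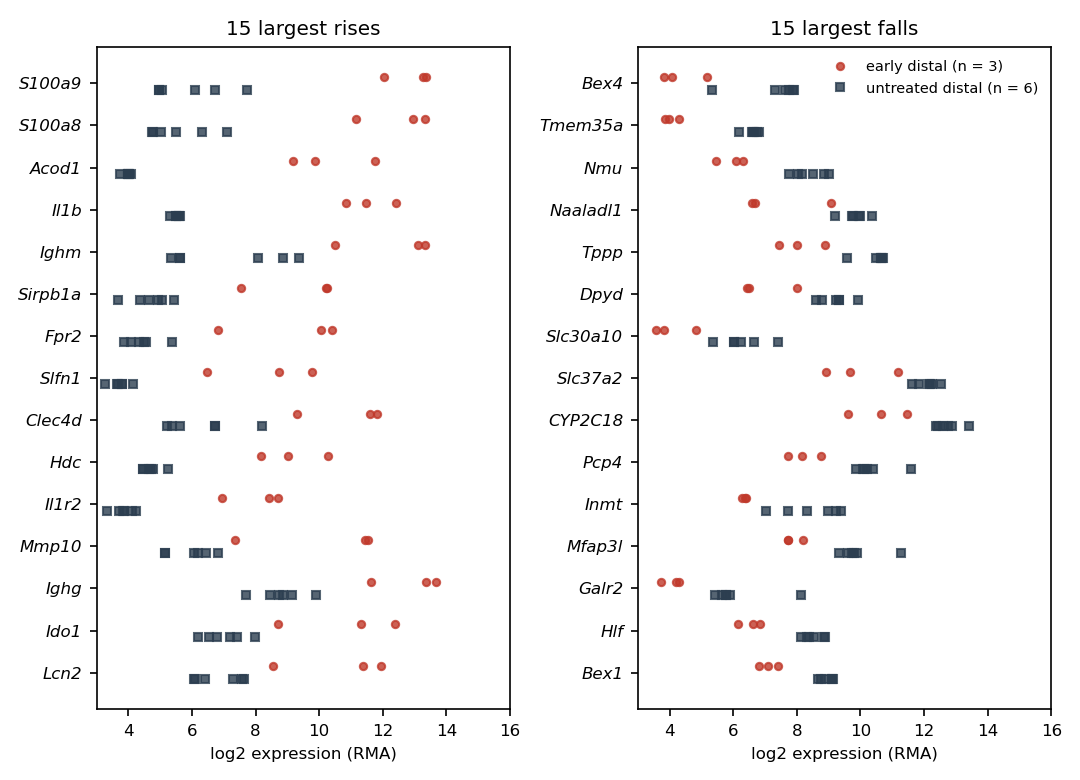
Log2 expression of the 15 genes with the largest rise (left) and the 15 with the largest fall (right) in each early distal array (red circles, n = 3) and untreated distal array (dark squares, n = 6). In these genes, which were required not to overlap, early distal 1 was often the early array nearest to the untreated arrays, and Galr2, Pcp4 and Mfap3l each have 1 high untreated array.

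The 15 genes with the largest rise without overlap included genes known from phagocytes, plasma cells, T cells, epithelium and stroma. S100a9 and S100a8, whose products form the neutrophil protein calprotectin, headed them at 6.96 and 6.91 log2 units, and Il1b, a cytokine released through the inflammasome, rose by 6.04. In whole tissue, more cells of a type and more RNA per cell cannot be told apart. Acod1, the mitochondrial enzyme that makes itaconate in activated macrophages, read 9.17, 9.88 and 11.75 in early distal arrays, against 3.74 to 4.09 with a median of 4.00 in untreated ones. It lay at background in all 6 untreated arrays and far above it in every early one (log2 difference 6.29 ± 0.58 SE, adjusted p = 1.39e-07). Hdc, which makes histamine, was at 8.18, 9.02 and 10.27 in early arrays and between 4.47 and 5.26 in untreated arrays, a 21.6-fold rise. The receptor genes of this group were Fpr2, which senses bacterial formyl peptides (4.64), Clec4d, a C-type lectin (4.60), the decoy receptor Il1r2 (4.18) and Sirpb1a (4.64). Slfn1, a member of the Schlafen family named for growth arrest in mouse T cells, was at 6.47, 8.74 and 9.79 in early distal colon and between 3.28 and 4.16 in untreated distal colon. Ighm and Ighg, the constant regions of immunoglobulin heavy chains, rose by 5.16 and 4.09. The remaining members were Lcn2, which binds bacterial siderophores (3.78), Ido1, which degrades tryptophan (3.79), and the matrix protease Mmp10 (4.15). The cells that express them cannot be told from whole tissue. Ighm lost its call when early distal 3 was left out (adjusted p = 0.065).

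Genes of Fc receptors and the ITAM signalling chain, by which myeloid cells sense antibody-coated targets, rose together. Of 20 measured members 19 rose, none fell, and the median difference was 1.43, against -0.06 over all genes. Fcgr4, an activating IgG receptor, was at 7.60, 9.96 and 10.47 in early distal arrays, against 5.41 to 6.61 (median 6.18) in untreated ones. The adapters Fcer1g and Tyrobp, which carry the ITAM motif, rose by 1.89 and 2.10, the Src-family kinase Fgr by 2.40, the adapter Lcp2 by 2.31 and the kinase Btk by 1.61. Trem2 was the member that did not pass, with a difference of 0.72 (adjusted p = 0.068). Early distal 1 was lowest of the 3 early arrays for Fcgr4, Fgr, Tyrobp, Fcer1g and Lcp2. Over the whole list its mean stood 0.74 above the untreated mean, below the 2.06 and 2.25 of the other early arrays and above the -0.29 to 0.27 of the untreated arrays. When early distal 3 was left out, 3.6% of all genes were called (2.69% higher and 0.913% lower), and 10 of these 20 genes rose.

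**Figure D2:**
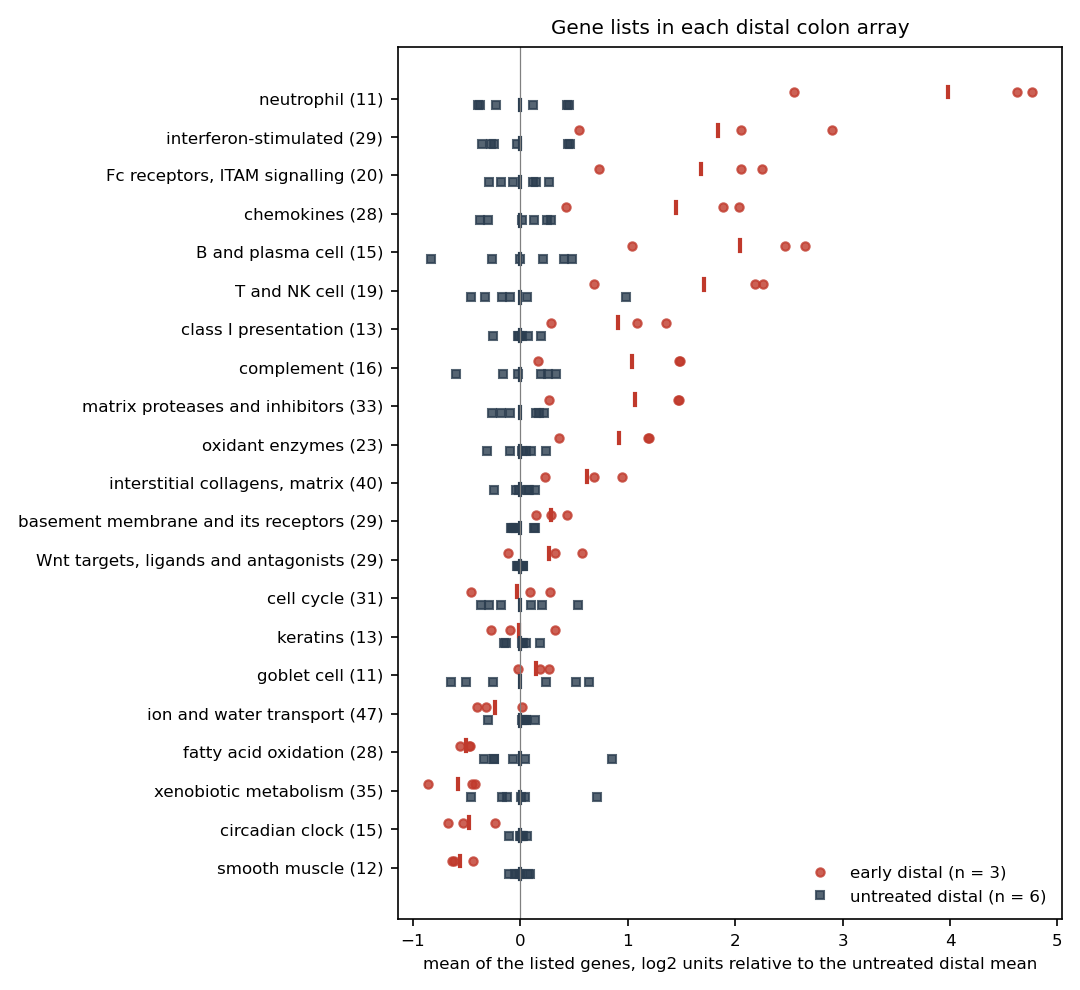
Mean of each gene list in every distal array, in log2 units relative to the mean of the 6 untreated distal arrays; red circles are the 3 early arrays, dark squares the 6 untreated arrays, short bars the group means and numbers in brackets the measured genes. Immune and matrix lists lie to the right, with early distal 1 nearest to 0; smooth muscle and circadian lists lie to the left without overlap, and the cell cycle, keratin and goblet cell lists overlap.

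Of 23 measured genes that make or remove oxidants, 10 rose and none fell (median 0.82). Subunits of the phagocyte NADPH oxidase were among the 10: Cybb, its catalytic subunit, was at 7.27, 9.38 and 9.71 in early arrays and between 5.87 and 7.13 in untreated ones, and Ncf4, Ncf1 and Cyba rose by 2.06, 2.02 and 0.89. Nos2, the inducible nitric oxide synthase, rose by 2.80 and its early values of 5.94, 7.74 and 9.20 all exceeded the untreated maximum of 4.95. Duoxa2 and Duoxa1, which bring the epithelial oxidase DUOX to the cell surface, rose by 2.58 and 1.58. Among the protective enzymes, Sod1 differed by -0.30, Cat by -0.03, Gclc by -0.22 and Nqo1 by -0.08, and none of these 4 was called. Over the whole list 18 genes had a difference above 0 and 5 below it, so these 4 do not stand for all protective members. Slc7a11, the cystine carrier that supplies glutathione synthesis, rose by 1.40 (adjusted p = 0.0306). The call of Slc7a11 ended when early distal 2, early distal 3, untreated distal 1 or untreated distal 3 was left out. With either early distal 2 or early distal 3 left out, 6 oxidant genes were called. Genes that make oxidants were not tested against genes that remove them.

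Chemokines for neutrophils, monocytes and lymphocytes rose, and so did many of their receptors. Of 28 chemokines 17 rose and none fell (median 1.42), and of 15 receptors 11 rose and none fell (median 1.56). The ligands of Cxcr3, which attract T cells, were among the largest: Cxcl9 (4.66), Cxcl10 (3.39) and Cxcl11 (2.75) rose, and Cxcr3 itself rose by 1.37. Cxcl10 had 7.60, 10.29 and 12.07 in early distal arrays, against 5.96 to 7.39 in untreated arrays, so the groups did not overlap although early distal 1 lay close to the highest untreated array. Neutrophil chemokines followed, with Cxcl5 at 3.90 and Cxcl2 at 2.99, and their early distal 1 values of 5.24 and 7.26 were again the lowest of the 3. Lymphoid chemokines and receptors rose as well: Ccl19 (2.78) with its receptor Ccr7 (2.54), Cxcl13 (1.62) with Cxcr5 (1.56) and Ccl20 (1.47) with Ccr6 (1.59). Ccl20 ran in another order, at 9.23, 8.84 and 7.54 in early distal 1, 2 and 3, and early distal 3 lay below the untreated maximum of 8.08. Among monocyte and T cell receptors, Ccr2 rose by 2.97 and Cxcr6 by 2.55. Ccl25, Ccl24 and Cx3cl1 (-0.53, -0.52 and -0.11) did not pass. The chemokine and receptor counts were 4 and 4 when early distal 3 was left out, and 9 and 5 when early distal 2 was.

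Adhesion molecules on both sides of the vessel wall rose, as did complement. Of 19 adhesion genes 13 rose and none fell (median 1.46): on leukocytes Itgal (2.54), Selplg (2.25) and Itgb2 (2.12), and on endothelium Selp (2.06), Icam1 (1.62), Vcam1 (1.60) and Madcam1, the gut homing ligand (1.31). General endothelial markers moved less, since 2 of 14 rose, Cdh5 by 0.73 and Eng by 0.62, and 0 were called without early distal 2 or without early distal 3. Of 16 complement genes 13 rose (median 1.18), among them C3, the central component, at 11.41, 12.61 and 12.92 in early distal arrays and 10.10 to 11.15 in untreated ones. C2 rose by 1.57 and the receptors C3ar1 and C5ar1 by 1.52 and 1.42. In coagulation F10 (1.60), Plaur (1.56), Procr (1.28), F5 (1.09) and Thbs1 (0.86) rose of 14 genes. Without early distal 3, 5 adhesion, 3 complement and 1 coagulation gene were called, and without early distal 2 the counts were 8, 4 and 3. The coagulation count was also 3 without untreated distal 1 and 3 without untreated distal 6.

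Genes induced by interferon rose in number and size, and did so mainly through 2 of the 3 early arrays. Of 29 measured genes 21 rose and none fell, with a median difference of 1.79. Isg15, a ubiquitin-like modifier, was at 8.35, 10.08 and 10.90 in early distal colon, against a median of 7.75 and a highest of 8.08 in untreated distal colon. Igtp, a GTPase that acts on vacuoles holding microbes, was at 8.48, 10.47 and 11.79 in early arrays and 8.04 to 8.52 in untreated arrays, so that early distal 1 lay within the untreated range. Gbp2, a guanylate-binding protein, was at 8.71, 11.37 and 12.14, against an untreated maximum of 9.14. Ido1 read 8.71, 11.32 and 12.37 in early distal arrays and at most 7.98 in untreated ones. The transducers Stat2 and Irf9, which belong to the factor that binds these genes, rose by 1.23 and 1.06, and the activators of antigen presentation Nlrc5 and Ciita by 3.11 and 1.71. In class I presentation 6 of 13 genes rose, led by Nlrc5, the peptide carrier Tap1 (1.93) and the immunoproteasome subunits Psmb9 (1.80) and Psmb8 (1.49). In class II presentation 5 of 6 rose, including the invariant chain Cd74 (1.35). The antiviral genes Oas3 (1.79), Rsad2 (1.36) and Mx1 (1.17) did not pass. Without early distal 3, Ido1 alone of the 29 genes was called (adjusted p = 0.0373), and 1 class I and 3 class II genes were. Without early distal 2 the interferon count was 9. Against untreated distal 1 to 3 alone it was 7, where 6.37% of all genes were called (4.4% higher and 1.98% lower), and against untreated distal 4 to 6 alone 26, where 19% were (8.74% higher and 10.3% lower).

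The promoters of some of these genes are shown because interferon-stimulated genes are known for a short element, GAAA, any 2 bases and GAAA again, bound by a complex that holds STAT2 and IRF9. The sequences are RefSeq windows on build GRCm38.p6, from 250 bases before to 50 after the gene start, written 5′ to 3′ on the gene's strand with the element in capitals. Isg15 lies on the minus strand at chr4:156200769-156201068 and holds 3 overlapping matches, the nearest starting 66 bases before the gene start. Igtp lies on the plus strand at chr11:58199306-58199605, with 1 match 34 bases before the start. Cxcl10 lies on the minus strand at chr5:92348840-92349139, with 1 match 213 bases before the start.
Isg15: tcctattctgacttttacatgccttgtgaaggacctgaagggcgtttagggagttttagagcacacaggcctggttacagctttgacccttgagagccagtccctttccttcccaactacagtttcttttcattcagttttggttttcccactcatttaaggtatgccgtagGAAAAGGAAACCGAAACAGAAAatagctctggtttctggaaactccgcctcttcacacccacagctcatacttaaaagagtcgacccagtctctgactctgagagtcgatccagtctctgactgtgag
Igtp: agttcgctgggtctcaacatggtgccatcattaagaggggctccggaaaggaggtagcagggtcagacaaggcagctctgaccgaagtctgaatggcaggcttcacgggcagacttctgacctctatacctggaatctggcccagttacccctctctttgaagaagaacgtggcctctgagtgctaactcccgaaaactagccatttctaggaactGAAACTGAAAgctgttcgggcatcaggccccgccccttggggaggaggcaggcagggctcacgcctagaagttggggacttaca
Cxcl10: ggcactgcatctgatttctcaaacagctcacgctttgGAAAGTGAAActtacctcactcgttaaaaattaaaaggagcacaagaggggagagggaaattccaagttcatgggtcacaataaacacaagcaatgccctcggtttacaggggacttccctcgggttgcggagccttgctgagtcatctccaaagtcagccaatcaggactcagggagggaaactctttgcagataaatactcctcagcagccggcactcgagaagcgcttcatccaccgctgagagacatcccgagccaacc
Both strands were searched. The element was in 3.44% of all 32851 promoter windows. It was in 7 of the 14 called interferon-stimulated genes that had a window and in 5 of the 7 that were measured but not called, so its presence did not separate them.

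**Figure D3:**
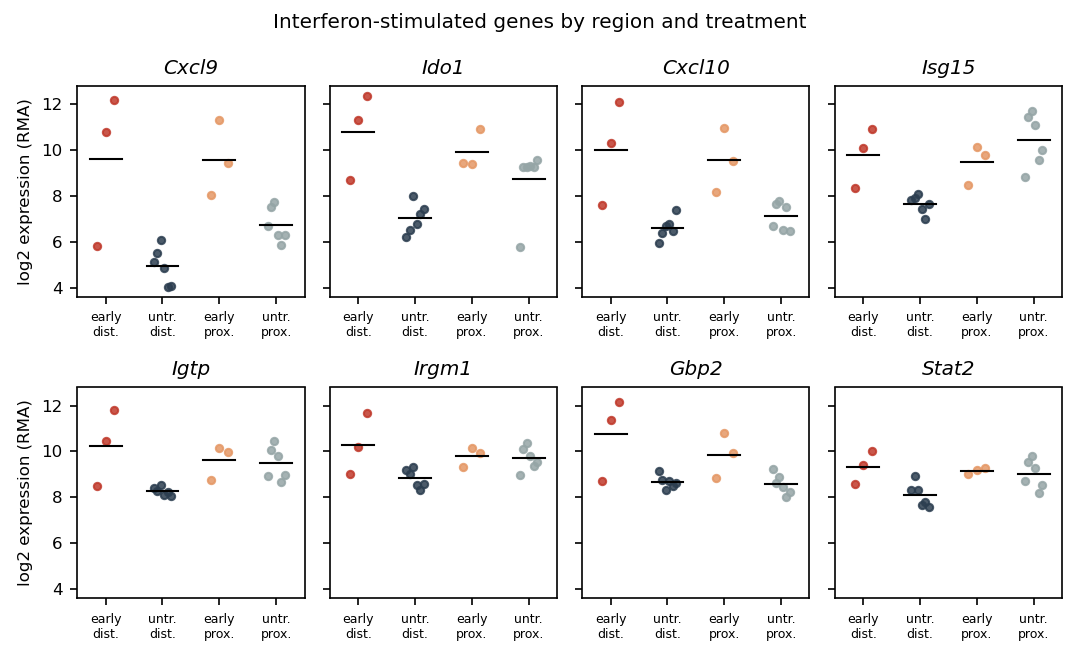
Log2 expression of 8 interferon-stimulated genes in early distal (n = 3), untreated distal (n = 6), early proximal (n = 3) and untreated proximal (n = 6) arrays; points are arrays and lines are group means. Early distal 1 is the lowest early distal point in each of these genes, and untreated proximal arrays already lie above untreated distal arrays for Isg15 and Igtp.

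Some inhibitors and feedback genes of NF-kB and STAT3 rose, and of the NF-kB subunits Rel did. In the NF-kB list 8 of 18 genes rose (median 0.54): the survival gene Bcl2a1a (2.54), the inhibitors Nfkbie (1.78) and Nfkbia (0.41), the RNA-decaying Zc3h12a (1.65), the subunit Rel (1.46), and Map3k8, Nfkbiz and Birc3 (1.03, 0.84 and 0.74). Of the 10 genes that did not pass, the subunits Rela, Nfkb1, Relb and Nfkb2 differed by 0.28, 0.18, 0.17 and -0.38. The others of the 10, inhibitors and feedback genes among them, are not named here. Nfkbia was at 12.86, 12.97 and 13.15 in early arrays and at most 12.85 in untreated ones, so the rise was small but free of overlap. Socs3, which is induced by STAT3 and blocks its receptors, was at 8.60, 9.93 and 10.94, against 6.46 to 7.63, a rise of 2.80 ± 0.40 (SE, adjusted p = 6.38e-05), and Stat3 rose by 0.59. Of the 16 genes of the STAT list 6 rose, and Socs2, a brake on growth hormone signalling, fell by 0.39. The upstream cytokines of these routes rose too: Tnf was at 5.95, 6.99 and 7.54 in early distal arrays and at most 4.88 in untreated ones, and Osm, a neutrophil and macrophage cytokine of the IL-6 family, and its receptor Osmr rose by 2.32 and 1.65. Il11 rose by 2.07 through early distal 2 and 3 (7.54 and 8.95), while early distal 1 at 5.12 lay within the untreated 4.98 to 5.25. Il33, an epithelial and stromal alarmin, and its receptor Il1rl1 rose by 1.42 and 2.14, and early distal 1 lay within the untreated range of both. In the whole cytokine list 15 of 22 genes rose and none fell (median 1.56). The cytokine, NF-kB and STAT counts of rises were 7, 4 and 3 when early distal 3 was left out, where Socs2 was not called, and the cytokine and NF-kB counts 8 and 4 when early distal 2 was.

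Of these genes, Cxcl2 and Nfkbia carry the letters GGG, any 2 bases and TTTCC, a form of the kappaB site bound by NF-kB, close to the gene start, and are shown for that reason with the site in capitals. Cxcl2 lies on the plus strand at chr5:90903649-90903948 with 2 matches, 97 and 78 bases before the start. Nfkbia lies on the minus strand at chr12:55492598-55492897 with 1 match, on the opposite strand, 29 bases before the start.
Cxcl2: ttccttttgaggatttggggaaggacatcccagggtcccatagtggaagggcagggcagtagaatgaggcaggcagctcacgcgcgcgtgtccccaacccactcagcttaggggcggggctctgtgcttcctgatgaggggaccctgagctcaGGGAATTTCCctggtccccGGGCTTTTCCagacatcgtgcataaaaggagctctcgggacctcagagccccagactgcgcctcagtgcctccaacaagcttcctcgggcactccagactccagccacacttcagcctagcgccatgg
Nfkbia: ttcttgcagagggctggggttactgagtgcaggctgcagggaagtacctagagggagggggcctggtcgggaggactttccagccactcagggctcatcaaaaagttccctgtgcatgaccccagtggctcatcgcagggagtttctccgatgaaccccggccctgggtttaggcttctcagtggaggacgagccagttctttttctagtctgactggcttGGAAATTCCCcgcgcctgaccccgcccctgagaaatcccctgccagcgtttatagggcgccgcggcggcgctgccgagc
These letters, searched on both strands, were in 1.63% of all windows. They were in 2 of 10 called chemokine genes with a window and 1 of 9 not called, and in 2 of 6 called and 3 of 8 uncalled genes of the NF-kB list.

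Lymphocyte and eosinophil genes rose along with genes that restrain T cells, and 3 of 8 mast cell genes did. Of 15 B and plasma cell genes 14 rose (median 2.11), and of 19 T and NK cell genes 16 did (median 1.81). Both measured eosinophil genes rose, Prg2, a granule protein, to 5.53, 7.22 and 7.12 in early distal arrays against at most 4.92 in untreated ones, and Il5ra by 1.43. The mast cell proteases Mcpt1 and Mcpt2, which mark mucosal mast cells, rose by 2.82 and 2.58, while Cpa3 (0.87), Mcpt4 (0.91) and Kit (-0.07) did not pass. Among 18 checkpoint and immunoregulatory genes 14 rose (median 1.32): Arg1 (2.18), Ctla4 (2.12), Il18bp (1.86), Pdcd1lg2 (1.61), Cd274, which encodes PD-L1 (1.47), and Pdcd1, its receptor (1.18), were among them. Cd274 had 9.58, 10.28 and 11.73 in early arrays and at most 9.57 in untreated ones, whereas Pdcd1lg2 in early distal 1 (4.02) lay within the untreated range. Foxp3 differed by 0.14 and Lag3 by 0.64 and neither passed. The B, T and checkpoint counts were 4, 5 and 7 without early distal 3 and 5, 7 and 9 without early distal 2. The B cell count was 9 without untreated distal 3, 13 without untreated distal 3 and untreated proximal 1, and 9 without untreated distal 5. Ms4a1, the B cell marker CD20, rose by 2.75 with all arrays and by 1.95 without untreated distal 3 (adjusted p = 0.0649), which had 2.84 where the other 5 untreated arrays had 7.18 to 7.99. With untreated proximal 1 left out as well, Ms4a1 passed (adjusted p = 0.0438). Mast cell genes numbered 5 without early distal 1 and 1 without early distal 2 or early distal 3.

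Antimicrobial genes of epithelium and granulocytes rose. Of 21 measured genes 10 rose and Reg4 fell (median 2.21). The siderophore trap Lcn2 was named above. Slpi, a protease inhibitor of mucosal fluids, was at 11.15, 12.89 and 12.71 in early distal arrays, against 7.19, 8.76 and 9.58 (lowest, median, highest) in untreated ones. Ltf, the iron-binding lactoferrin of neutrophil granules, rose by 3.21, Pla2g2a, a phospholipase that attacks bacterial membranes, by 2.41, and Chil1 by 2.21. Saa1, an acute phase protein of a family of near-identical genes whose probe sets may share signal, rose by 4.58 with all arrays and by 5.55 without untreated distal 3, which had 11.77 where the other 5 had at most 6.78. Muc1, a membrane mucin, was higher at 9.62, 9.67 and 9.37 in early arrays than at 5.61 to 8.41 in untreated ones, and rose by 1.73, or by 1.28 without untreated distal 3. It was the 1 gene called of 28 in a separate list of mucins and their glycosylation (3.57%). The call of Reg4 ended without early distal 3, and that of Muc1 without any 1 of the 3 early arrays. The secreted goblet cell products Clca1, Fcgbp and Zg16 differed by -0.14, -0.01 and 0.22, and 0 of 11 goblet cell genes were called by limma, with 1 at an unadjusted p under 0.05, 1 called without untreated distal 3 and 2 higher against untreated distal 4 to 6 alone.

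Of the prostaglandin genes, one synthetic enzyme rose and one that breaks prostaglandins down fell. Ptgs2, the inducible cyclooxygenase COX-2, was at 9.12, 9.11 and 10.36 in early distal arrays and 7.10 to 8.51 in untreated ones, a rise of 1.90. Hpgd, which inactivates prostaglandins, was at 12.11, 11.59 and 11.13, against 12.33 to 12.63, and fell by 0.85 (adjusted p = 0.0118). Both were without overlap. Ephx2, the soluble epoxide hydrolase, fell by 1.04, and Alox5ap, Ltb4r1 and Cysltr1 of the leukotriene route rose by 1.46, 0.75 and 0.71. The other 22 of 28 eicosanoid genes did not pass. Ptges, the inducible PGE synthase, differed by 0.73 and the receptors Ptger2 and Ptger4 by 0.26 and -0.20. When early distal 3 was left out, 0 eicosanoid genes were called in either direction, so the calls of Ptgs2, Hpgd and Ephx2 ended. When early distal 2 was left out 2 were called higher and 1 lower, and Hpgd and Ephx2 were not called. Without untreated distal 2 the fallen genes numbered 5.

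Matrix-degrading enzymes and matrix proteins rose. Of 33 proteases and inhibitors 15 rose (median 0.70) and Mep1a, a brush border metalloprotease, fell by 1.05. The stromelysins Mmp10 and Mmp3 were among the largest: Mmp3 was at 6.50, 10.44 and 11.09 in early arrays and 5.08 to 6.24 in untreated ones, and the inhibitor Timp1 at 7.50, 10.41 and 10.63 against 5.81 to 6.89. Adam12 (2.85), Mmp13 (2.65) and Adamts4, which cleaves aggrecan and versican (2.57), rose, and Timp2, Timp3 and Timp4 (-0.23, -0.09 and -0.25) did not pass. Of 40 interstitial matrix genes 19 rose and none fell (median 0.64): the crosslinking enzyme Lox by 2.60, Spp1 by 2.46, Col18a1 by 1.38, Vcan by 1.22, Col1a2 by 0.85 and Col1a1 by 0.78. The call of Mep1a ended when early distal 2, early distal 3, untreated distal 3, untreated distal 4 or untreated distal 6 was left out. Col1a1 was tight in both groups, at 12.25, 12.45 and 12.43 in early arrays and 11.27 to 11.82 in untreated ones. Basement membrane genes rose in 7 of 29 cases, led by Lama1 (1.60), which was at 5.97, 6.94 and 6.76 against 4.26 to 5.23, and by Col4a1 (0.89) and Col4a2 (0.77). In the TGF-beta and activin list 7 of 23 rose, among them Ltbp2 (2.27), the ligand genes Tgfb1 (1.04), Inhbb (1.39) and Inhba (1.00), and the TGF-beta-induced Tgfbi (0.91), while Smad2, Smad3, Smad4 and Smad7 lay between -0.19 and 0.13. Of 11 fibroblast markers Col1a1, Pdgfra and Col3a1 rose, while 5 were called without early distal 1 and 0 without early distal 2 or without early distal 3. The protease, interstitial, basement membrane and TGF-beta counts were 9, 6, 2 and 1 without early distal 3, and 8, 5, 2 and 3 without early distal 2.

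In the lists of epithelial growth between 0% (cell cycle and keratins) and 16.7% (crypt stem and progenitor) of the genes were called, beside 11.3% of all genes. Of 16 wound-associated epithelium genes 3 rose and none fell (18.8%, median 0.34). The count was 0 without early distal 3, 1 without early distal 2 and 6 without early distal 1. In the Wnt list of 29 genes, 13.8% of which were called, Mmp7 (3.84), the stromal antagonist Sfrp1 (1.35) and Wnt5a (0.88) rose and Nkd2, a feedback inhibitor, fell by 1.05. The epithelial targets Axin2 (-0.33), Rnf43 (-0.18), Notum (0.32) and Myc (-0.01) did not pass. Mmp7, whose product also activates antimicrobial peptides, was at 5.10, 9.63 and 9.56 in early arrays. Early distal 1 was below untreated distal 3, the highest untreated array at 6.54, and without that array the rise was 4.30. Of 12 crypt stem and progenitor genes Tnfrsf19 and Ascl2 fell, by 1.34 and 0.95, and Lgr5 averaged 5.81 in both groups. Without early distal 3 the risen Wnt genes numbered 1, and the fallen stem cell genes numbered 1 without early distal 3 and 1 without untreated distal 6. Grem1, a stromal BMP antagonist, was at 9.66, 10.57 and 11.08, against an untreated median of 8.68, and did not overlap, a rise of 1.83 that was not called without early distal 3. It was the 1 gene that rose of 28 in the BMP and hedgehog list, where 2 fell and 25 did not pass (10.7% called, median -0.12). Of 31 cell cycle genes 0 were called by limma, with 0 at an unadjusted p under 0.05, differences between -0.34 (Ccnb2) and 0.33 (Rrm2) and Mki67 at 0.13, and 2 were called higher against untreated distal 4 to 6 alone. Of 13 keratins 0 were called, with 0 at an unadjusted p under 0.05, and of 20 EGF family genes only the feedback inhibitor Errfi1 was, falling by 0.41, and not when early distal 2 or early distal 3 was left out. Of 26 p53 and DNA damage genes Fas rose by 0.86 and Plk3 fell by 0.75, while Cdkn1a and Mgmt (-0.20 and -0.63) did not pass. The call of Plk3 ended when early distal 2, early distal 3 or any of untreated distal 1, 3, 4, 5 and 6 was left out. Of 24 intestinal identity factors Prdm1, which plasma cells also express, rose by 1.38, and Cdx2, Cdx1 and Hnf4a (0.02, -0.22 and -0.04) did not pass. The call of Prdm1 ended when early distal 2, early distal 3 or any of untreated distal 1, 2, 4 and 6 was left out.

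The 15 genes with the largest fall were of mixed function. Bex4 and Bex1, X-linked adapters known from neurons, were named with Tmem35a, which aids the assembly of nicotinic receptors, and with Pcp4, a calmodulin regulator of nerve and muscle cells. Tmem35a was at 4.28, 3.97 and 3.86 in early distal arrays, against 6.19, 6.62 and 6.80 (lowest, median, highest) in untreated ones, and fell by 2.57 ± 0.28 (SE, adjusted p = 1.58e-06). Pcp4 was at 7.73, 8.75 and 8.17, against 9.86 to 11.59, and fell by 2.16, or by 1.92 without untreated distal 3. Nmu, the enteric neuropeptide neuromedin U, was at 6.08, 6.32 and 5.46, against a lowest of 7.76 and a median of 8.34, and fell by 2.44, and Galr2, a galanin receptor, fell by 2.02, or by 1.61 without untreated distal 3. Epithelial enzymes and carriers formed the rest: Dpyd, which degrades pyrimidines (-2.22), Naaladl1, a brush border peptidase (-2.39), the manganese exporter Slc30a10 (-2.21), the sugar phosphate exchanger Slc37a2 (-2.19), the cytochrome P450 named CYP2C18 in the table (-2.16) and the methyltransferase Inmt (-2.09). Dpyd was at 8.01, 6.42 and 6.51 in early arrays, against 8.61 to 9.92. Tppp, a tubulin polymerisation protein, fell by 2.35 and Mfap3l by 2.06. The calls of Naaladl1, Slc30a10, Slc37a2, CYP2C18 and Galr2 ended without early distal 3 (adjusted p between 0.0798 for Galr2 and 0.193 for Slc37a2). Those of Naaladl1, Slc30a10 and Slc37a2 also ended without early distal 2 (adjusted p = 0.063, 0.0933 and 0.0812) and against untreated distal 1 to 3 alone (adjusted p = 0.0717, 0.086 and 0.11).

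Smooth muscle genes were low in all 3 early arrays. Of 12 markers 5 fell and none rose (median -0.51), and their mean stood at -0.64, -0.44 and -0.61 in early distal arrays, against -0.10 to 0.09 in untreated ones. Early distal 1 did not stand apart here. Smtn, smoothelin of contractile muscle, was at 9.12, 9.11 and 9.02, against 9.78 to 10.32, and fell by 1.03. Lmod1, which nucleates actin in smooth muscle, was at 8.81, 9.02 and 8.81, against 9.72 to 9.93, and fell by 0.96. Synpo2 and Synm fell by 0.99 and 0.98 and the myosin Myh11 by 0.65, while Des, Cnn1 and Tagln (-0.51, -0.51 and -0.26) did not pass. The share of muscle wall in the samples was not measured otherwise, and its part in the result was not tested. Of 17 enteric neuron and glia genes Syt1 (-0.78) and Elavl3 (-0.61) fell and Tac1, the substance P precursor, rose by 0.68. The difference was below 0 in 15 of the 17 (median -0.48), and 11 had an unadjusted p under 0.05. The list mean was -0.74, -0.10 and -0.34 in early arrays, against -0.20 to 0.19 in untreated ones, so the groups overlapped. The calls of Tac1 and Elavl3 ended when early distal 2 or early distal 3 was left out, and that of Syt1 when early distal 1 was. The smooth muscle count was 3 without early distal 3.

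Clock-controlled transcription factors fell. Of 15 circadian genes 6 fell, 1 rose and 8 did not pass (median -0.53). The PAR-domain factors Hlf, Dbp and Tef, which drive rhythmic detoxification genes, fell by 1.98, 1.35 and 0.87. Hlf was at 6.83, 6.61 and 6.16 in early arrays, against 8.14, 8.46 and 8.89 (lowest, median, highest) in untreated ones, and Dbp at 10.77, 10.62 and 9.79, against 11.42 to 12.42. Nfil3, which competes with these factors for the same sites and serves type 2 and innate lymphoid cells, rose by 1.72, although early distal 1 (6.12) lay below the untreated maximum of 6.70. The repressors Cry2, Nr1d1 and Per2 fell by 1.01, 0.93 and 0.84. The activators Arntl, Clock and Npas2 (-0.09, 0.01 and -0.09) and the repressor Per1 (-0.82, adjusted p = 0.0513) did not pass. The time of day of killing is not in the labels, so its part in these values was not tested. Without early distal 3 the fallen genes numbered 2 and Nfil3 was not called.

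Some genes of colonocyte metabolism and transport fell, where 4.25% of all genes were called lower. Of 35 xenobiotic genes 8 fell (median -0.65), including Ces1g (-1.51, or -1.23 with an adjusted p of 0.0653 without untreated distal 3), Sult1c2 (-1.35), Cyp2s1 (-1.25), Gstm6 (-0.96) and Sult1a1 (-0.94), and Cyp1b1, which activates polycyclic carcinogens and is expressed in stroma, rose to 6.16, 8.71 and 6.91 against 4.02 to 5.43, a call that ended without early distal 2. Of 28 fatty acid oxidation and ketogenesis genes 5 fell (median -0.39): the nuclear receptor Ppara (-1.31) and the enzymes Acaa2 (-0.76), Cpt1a (-0.67), Cpt2 (-0.65) and Acadm (-0.58). All 28 had a difference below 0. Untreated distal 3 stood at 0.85 for the mean of this list, against -0.34 to 0.047 in the other untreated distal arrays. For the xenobiotic list it stood at 0.71, against -0.459 to 0.045. Both falls are therefore set against untreated means that this array raised. Pdk4, which holds back the use of pyruvate, had a larger difference (-1.54) that did not pass, and its untreated arrays reached 12.04 with a median of 10.54. Of 30 citrate cycle and respiratory chain genes Cox7a1, Idh3a and Fh1 fell by 0.96, 0.63 and 0.40, and none was called lower without early distal 3. Of 47 ion and water transport genes 7 fell: Aqp11 (-1.15), the carbonic anhydrases Car1 (-1.12) and Car2 (-0.46), the bicarbonate carrier Slc4a4 (-0.81), the potassium channel Kcnq1 (-0.60), Slc4a2 (-0.55) and Atp2b1 (-0.48). Car1 was at 12.32, 12.74 and 12.65 in early arrays, against 13.50 to 14.09. The differences of Slc26a3 (-0.42), Aqp8 (-0.71) and Scnn1a (-0.81), which serve salt and water absorption, did not pass. Occludin (Ocln) fell by 0.55 as the 1 of 25 junction genes that passed, and the vitamin D receptor Vdr fell by 0.59. The call of Ocln ended when early distal 2, early distal 3 or any of untreated distal 4, 5 and 6 was left out, and that of Vdr without early distal 2, early distal 3 or any of untreated distal 1 to 4. The xenobiotic, fatty acid and ion transport counts of falls were 3, 0 and 1 without early distal 3, against 6, 2 and 1 without early distal 2. The ion transport count was 14 without early distal 1 and 4 without untreated distal 3. The fatty acid count was 10 without untreated distal 2, and 3 without untreated distal 3 or untreated distal 6, and the xenobiotic count was 13 without untreated distal 2. With untreated proximal 1 left out beside untreated distal 3, the xenobiotic, fatty acid and ion transport falls numbered 9, 6 and 8. In that setting 2 ion transport genes rose, and Ces1g passed (adjusted p = 0.0137).

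**Figure D4:**
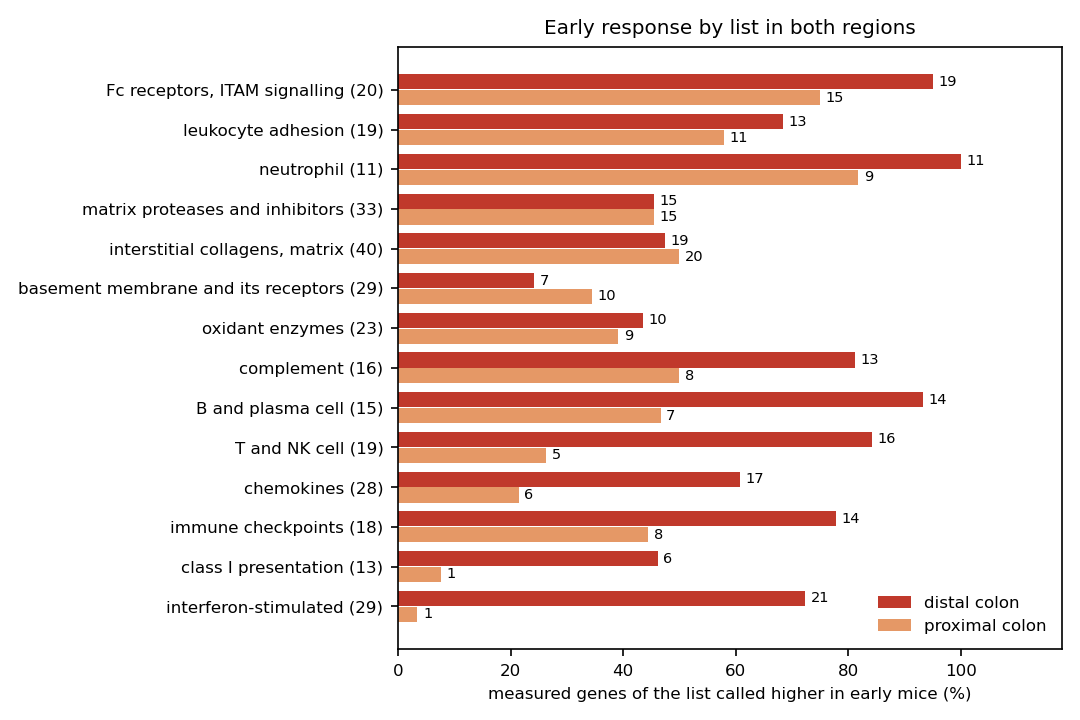
Share of the measured genes of each list (number in brackets) called higher in early than in untreated mice, in the distal (upper bars) and proximal colon (lower bars), with the number of genes at each bar. Matrix lists have similar counts in both regions; interferon-stimulated genes have 21 called in the distal and 1 in the proximal colon, a contrast for which no single gene passed the interaction test.

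The labels set the distal colon apart from the proximal colon, where no lesion was seen, and the early response was compared between them. In early proximal colon 1072 genes (7.59%) passed against untreated proximal colon, 704 (4.98%) higher and 368 (2.61%) lower. Of the 1592 genes called in the distal colon, 1546 differed in the same direction in the proximal colon. The median of the distal rises was 1.37 in the distal and 1.01 in the proximal colon, and that of the falls -0.75 in the distal and -0.40 in the proximal colon, values that favour the distal colon because the genes were chosen there. The test of the difference between the 2 responses called 0 of 14123 genes (0%, limma, lowest adjusted p = 0.923), with 501 genes at an unadjusted p under 0.05, or 3.55%. It called 2 without early distal 1, and 17 without untreated distal 3 and untreated proximal 1, the arrays with Hox values of the other region. Of the genes with large rises, S100a9 rose by 6.96 in the distal and 6.95 in the proximal colon, Mmp10 by 4.15 and 4.61 and Col18a1 by 1.38 and 1.70. The median of the 21 antimicrobial genes was 2.21 in the distal and 1.27 in the proximal colon, and 3 of 11 neutrophil genes had an unadjusted interaction p under 0.05 (median difference between the responses 1.09). The interferon-stimulated list differed most in its count, with 21 called in the distal and 1 in the proximal colon, and medians of 1.79 and 0.16. Of its 29 genes 19 had an unadjusted interaction p under 0.05 and none passed adjustment. Relative to the untreated distal mean, the list mean ran from 0.46 to 2.16 in untreated proximal and -0.36 to 0.46 in untreated distal arrays. In early arrays it ran from 0.55 to 2.90 in the distal and 0.93 to 2.00 in the proximal colon. The early ranges thus overlapped, while most untreated proximal arrays lay above the untreated distal ones. Isg15 differed by 2.12 in the distal and -0.98 in the proximal colon (interaction 3.11 ± 0.83 SE, adjusted p = 0.923). Its untreated proximal arrays spread from 8.81 to 11.71, above every untreated distal array. Falls of Car1 (-1.12 in the distal and 0.06 in the proximal colon) and Pcp4 (-2.16 and -0.34) likewise did not pass the interaction test (adjusted p = 0.923 and 0.999). For smooth muscle, 5 genes fell in the distal and 0 in the proximal colon, with medians of -0.51 and -0.04.

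**Figure D5:**
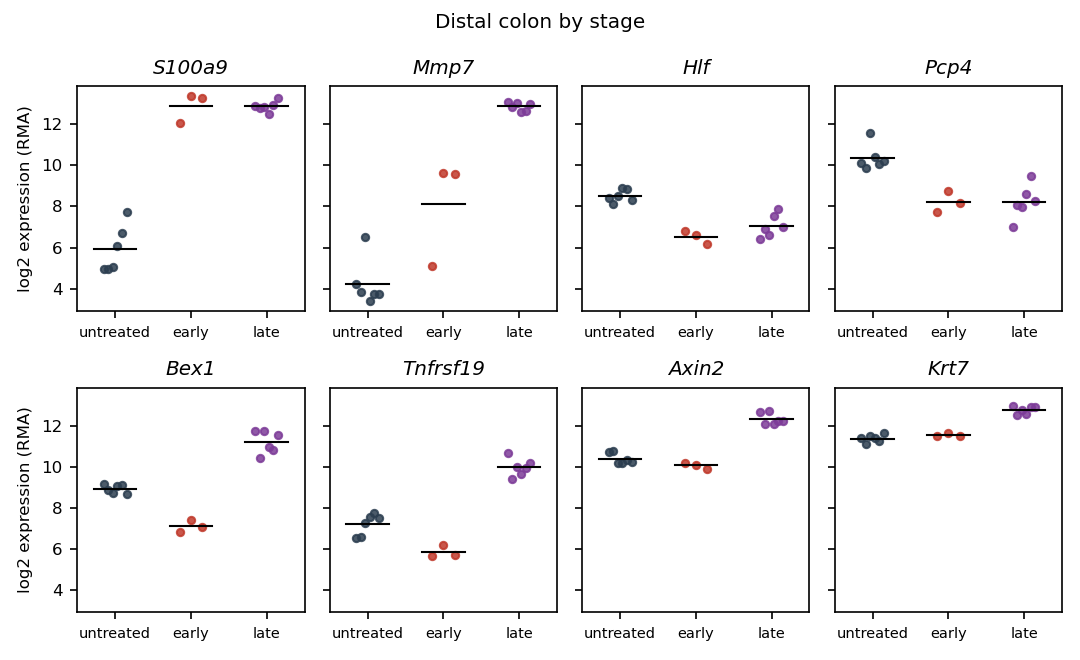
Log2 expression of 8 genes in untreated (n = 6), early (n = 3) and late (n = 6) distal arrays; points are arrays and lines are group means. S100a9, Hlf and Pcp4 hold in late mice near their early level, Mmp7 rises further, Axin2 and Krt7 are higher in late mice only, and Bex1 and Tnfrsf19 are below untreated in early mice and above it in late mice.

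Late mice carry carcinoma as well as dysplasia by the labels, and the early values were placed beside theirs. Late and early distal colon differed in 3398 genes (24.1%), of which 2171 (15.4%) were higher and 1227 (8.69%) lower in late mice, or 1653 and 1775 when each array was centred on its median. The late changes share the untreated arrays with the early ones, so the 3 stages are given side by side. S100a9 averaged 5.93, 12.88 and 12.87 in untreated, early and late distal colon, and the neutrophil list had 1 of 11 genes that differed between late and early. The smooth muscle list had none that differed, and of the fallen genes Hlf averaged 8.52, 6.53 and 7.06 and Pcp4 10.38, 8.22 and 8.24. Lists of epithelial growth and of transport differed between the stages. Of 29 Wnt genes 17 were higher and 3 lower in late than in early mice, with Axin2 at 10.40, 10.07 and 12.33 and Notum at 4.72, 5.04 and 10.85 in untreated, early and late mice. Of 31 cell cycle genes 16 were higher in late than in early mice and of 13 keratins 10, among them Krt7 at 11.38, 11.54 and 12.76. Of 12 crypt stem and progenitor genes 8 were higher in late mice, of 8 mast cell genes 6 were higher and 1 lower, and of 47 ion and water transport genes 3 were higher and 15 lower. Bex1 and Tnfrsf19 went below the untreated level in early mice and above it in late mice. Bex1 averaged 8.95, 7.10 and 11.21 (late minus early 4.11 ± 0.25 SE, adjusted p = 8.02e-12), and Tnfrsf19, a Wnt-induced receptor of crypt stem cells, averaged 7.21, 5.87 and 9.97 (late minus early 4.10 ± 0.27 SE, adjusted p = 2.42e-11). Mmp7 averaged 4.25, 8.09 and 12.87, and Lcn2 and Mmp10 rose further from early to late by 1.86 and 2.01. Without early distal 1 the late and early groups differed in 1673 genes.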

How the data were processed

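RNA of distal and proximal colon was extracted with Trizol, amplified with the NuGEN Ovation kit and hybridised to Affymetrix arrays, per the labels' protocols. As deposited, the values are on a log2 scale; RMA and Partek 6.5 are named in the submitters' processing notes. The authors' deposited comparison table gives means, p-values and a score, the signed fold change of untreated over treated, for 26933 of the 45101 probe sets. It was used to name genes and protein classes, and the group means in it differed from means of the deposited columns by at most 0.0051. Labels call the samples biological replicates from at least 3 animals, with no batch or pairing stated. Probe brightness on an array gives no counts, so the number of arrays limits the precision.

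Each of 14123 genes was read from its probe set with the highest mean; 5857 genes had more than 1. A linear model of 6 group means over all 28 arrays was fitted with limma 3.58.1 in R 4.3.3 (lmFit and eBayes, 22 residual and 3.78 prior degrees of freedom). P-values were adjusted by Benjamini-Hochberg over all genes, and an adjusted p under 0.05 was called. The model was tested on simulated data. Python 3.11.15 served for tables (pandas 2.3.3), array arithmetic (numpy 2.4.6) and plots (matplotlib 3.10.9).

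Outside the lists, the genes named are the 15 largest called rises and the 15 largest called falls without overlap between groups; predicted and unnamed genes and variable segments were passed over. Within a list, up to 4 called members of each direction were named by size, and others by their role. Members and lists were chosen with earlier results of these data known. Probe sets of Ighm, Sirpb1a, Mcpt1, Mcpt2, Slfn1, Cxcl2 and Saa1 may also read close relatives. CYP2C18 is kept as the table spells it. Samples with the same number were checked for pairing: their deviations from the group means, early against untreated distal, correlated at 0.14, -0.37 and 0.10. For untreated groups the mean was that of replicates 1 to 3. Deviations cancel out within such a set, so the correlations are not independent of each other. Those of distal and proximal arrays correlated at 0.69, 0.55 and -0.02 in early and 0.70, -0.51 and 0.63 in untreated mice. Early distal and early proximal arrays of other numbers correlated between -0.64 and 0.35. Among other-numbered untreated arrays, untreated distal 3 correlated at 0.75 with untreated proximal 2 and -0.75 with untreated proximal 1. The untreated sets hold the 2 arrays with Hox values of the other region, so their correlations can neither show nor exclude pairing. No pairing is stated in the labels, and the number was not used as a block in the main fit. The interaction test there treated distal and proximal arrays as independent. Alternatives covered the choice of probe set, a filter on low values, centring, array weights, the variance prior, the arrays in the fit and each left-out array. A few genes are counted in their lists but not reported here by name.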

Additional observations from a re-analysis of the deposited data

Results flagged for a closer look

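In 27 of 198 genes tested, 1 untreated distal array lay farther from the other 5 than Dixon's 95% critical value allows; chance gives this in about 1 in 20 groups. Of the 27, 17 were set apart by untreated distal 3, the array whose Hox values are those of proximal arrays, 5 by untreated distal 2, 2 by untreated distal 1, 2 by untreated distal 5 and 1 by untreated distal 4.

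Untreated distal 3 was highest for Saa1 (11.77), Reg4 (14.19), Car1 (14.09), Ces1g (11.89), Mfap3l (11.28), Pcp4 (11.59), Galr2 (8.12), Mcpt1 (7.62), Mcpt2 (7.58), Duoxa2 (7.51), Lcp2 (7.28) and Mmp7 (6.54). It was lowest for Muc1 (5.61), Bex4 (5.32), Grem1 (7.83), Sfrp1 (8.58) and the B cell gene Ms4a1 (2.84). The early differences of Ces1g and Ms4a1 no longer passed without it, and the other 15 did. With untreated proximal 1 left out as well, Ces1g and Ms4a1 passed too (limma, adjusted p = 0.0137 and 0.0438).

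Untreated distal 2 was lowest for Tmem35a (6.19), Ephx2 (9.45) and Nr2f1 (4.68) and highest for Arg1 (6.11) and Syt1 (7.26). Untreated distal 1 was lowest for Acod1 (3.74) and highest for Dbp (12.42). Untreated distal 5 was lowest for Tppp (9.58) and Fscn1 (9.59), and untreated distal 4 for Lama1 (4.26).

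Socs2 moved in opposite directions in the regions: early minus untreated was -0.39 in the distal and 0.05 in the proximal colon, a difference of -0.44 that did not pass the interaction test.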

How the results depend on the processing

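The early distal response has 3 arrays, and its counts moved with them. Leaving out each replicate gave 509 to 2102 called genes, 380 to 1308 higher and 129 to 794 lower, lowest without early distal 3 and highest without early distal 1. With only the 9 arrays of the comparison the counts were 851, 611 higher and 240 lower, and the cause was not tested for this or the following settings. Untreated distal 1 to 3 alone gave 900, 621 and 279, untreated distal 4 to 6 alone 2682, 1234 and 1448, all probe sets 2511, 1622 and 889, and array weights 5054, 2117 and 2937. The interaction called 0 to 2 genes when each replicate was left out, 375 with array weights, 9 against untreated 4 to 6 alone and 17 without untreated distal 3 and untreated proximal 1, a setting chosen after seeing the data. Late against early called 1673 to 3755 genes with a replicate left out, 1110 to 2368 higher and 563 to 1387 lower. All probe sets gave 6391, 3893 and 2498 there, and genes lower in late mice numbered 815 with only the arrays of the comparison and 1990 with array weights.

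Same-numbered arrays did not all deviate together, a check that cannot decide on pairing in the untreated sets. With the replicate number as a block 1104 genes were called, 783 higher and 321 lower, and the interaction called 0.

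Of 198 named genes, 87 passed under every alternative and none reversed; 103 were lost without early distal 3, 71 without early distal 2 and 8 without early distal 1. Of the 30 genes named for size, 7 had more than 1 probe set, and in all 7 the probe sets ran in 1 direction. Genes near background have uncertain folds.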
